A study of Mus musculus with 60 samples.

Results

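Hepatocytes whose Met gene had been deleted by Alb-Cre were compared before and 12 h after addition of hepatocyte growth factor (HGF). All arrays titled as knock-out at 12 h of HGF or as untreated knock-out were taken, repeats 1 to 3 of each, which gave 12 of the 60 arrays of the series. The knock-out cells (Alb-Cre +/-; Met Fl/Fl, strain 129SV/C57BL6) were primary hepatocytes of adult male mice aged 9 to 10 weeks, plated in serum-containing medium and moved to serum-free medium with ITS supplement on the same day. Treated cultures received 50 ng/ml of recombinant human HGF on the day after plating, and untreated cultures received none. A second label field of the treated samples gives the dose as 50 nM, and for the 12 h samples it gives a time of 0.5 h, so the titles were used for the time. The albumin promoter drives Cre in hepatocytes, so other liver cells in such a preparation keep Met. The controls named as WT (strain C57BL) were heterozygous for Cre, with the same sex and age range, and serve here for the comparison of genotypes. Each culture was labelled as coming from 1 of 3 individual mice per group, and whether the same mice served at both times is not stated. RNA of each replicate was hybridised on 2 arrays with the dyes exchanged, each time against RNA of pooled wild-type hepatocytes (C57BL).

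HGF is a secreted growth factor that binds the receptor tyrosine kinase MET, which signals through the RAS-ERK and PI3K-AKT pathways to motility, survival and division of hepatocytes. Without MET on the hepatocyte no other high-affinity HGF receptor is established, so the comparison asks what changes over 12 h in cells that lack the receptor. Isolated hepatocytes in culture are known to lose part of the liver programme, such as drug metabolism and urea synthesis, while genes of the cytoskeleton rise. No untreated culture of 12 h was analysed here, so HGF and 12 more hours in culture cannot be told apart.

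All values are log2 ratios of a replicate to the reference, each array centred on its median and both dye orientations averaged. They were read as sample over reference, which no source states, and every direction below would turn with the opposite reading. A difference is the mean at 12 h minus the mean of untreated cells. Its standard error (SE) from limma pools the spread of all 10 groups of the series. Of 21997 probes, 14580 had enough values to be tested, for 10074 named genes. A probe was called where limma's p, adjusted over all tested probes by Benjamini and Hochberg, was under 0.05. The arrays of untreated replicate 3 stood apart. Their SD over probes was 0.297 (Cy5) and 0.415 (Cy3), against 0.662 to 0.767 for the other untreated arrays. Its averaged values correlated with those of replicates 1 and 2 at r of 0.26 and 0.307, while replicates 1 and 2 correlated at 0.592. Its arrays belong to another number range (set A) than the other 5 replicates (set C). At 12 h the Cy3 array of replicate 2 had the widest SD of the 12 arrays, 0.956. Within each of the 6 replicates both orientations correlated negatively over probes, at r of -0.601 to -0.11, and their differences between the groups correlated at 0.182 over tested probes.

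The probe of the targeted gene Met read 0.33, 0.31 and -0.04 in untreated replicates 1 to 3 and 0.40 and 0.43 in 12 h replicates 1 and 3, with no value in replicate 2. Control cells read 0.26 and 0.19 untreated and 0.35, 0.43 and 0.57 at 12 h, so knock-out and control levels lay in the same range. Met differed by 0.22 ± 0.19 (SE) over 12 h in knock-out cells (limma adjusted p = 0.89). No source used here places this probe relative to the deleted exons, so it does not check the knock-out.

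In knock-out hepatocytes 16 probes fell and 3 rose by 12 h. Among the genes that fell were 8 interferon-induced genes and 2 enzymes of the urea cycle, and the genes that rose were S100a6, Lgals3 and Trpc7. Called probes were 0.130% of those tested, 0.110% lower and 0.0206% higher. At an unadjusted p under 0.05 there were 1221 probes. The smallest called difference was 0.667 in size, and 12 of the 19 passed 1, of which 11 were lower. In all 19 the replicate values of both groups were separate, which was so for 18.3% of tested probes (9.68% higher and 8.63% lower). In 18 of the 19 the Cy5 and the Cy3 difference had the same sign, against 7915 of 14580 tested probes. A symbol was given for 17 of the 19. Leaving out untreated replicate 1, 2 or 3 left 1, 12 or 5 calls, and leaving out 12 h replicate 1, 2 or 3 left 16, 5 or 24. With weights for each group's spread 116 probes were called (0.796%), 13 higher (0.0892%) and 103 lower (0.706%), and 72 when untreated replicate 3 was left out as well; both sets held all 19. With the sign of all Cy3 arrays turned, 1 probe was called.

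**Figure D1:**
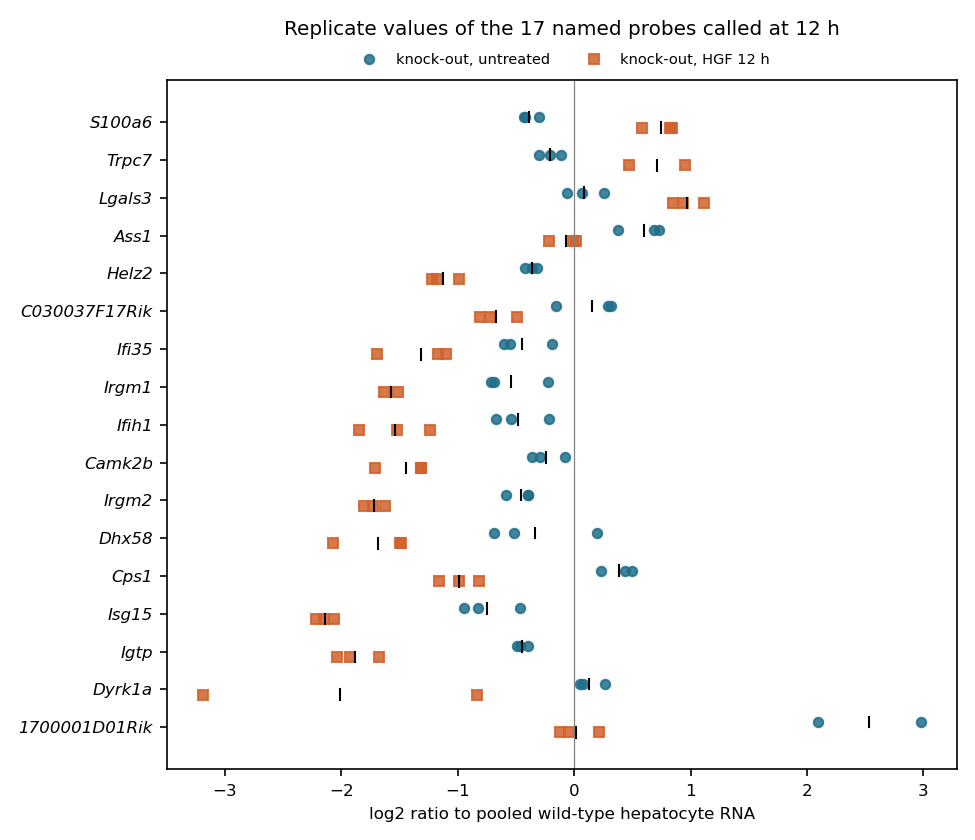
Log2 ratio to pooled wild-type hepatocyte RNA (horizontal axis) of each knock-out replicate, untreated (circles) and after 12 h of HGF (squares), for the 17 called probes with a gene symbol; short black lines are group means. In every row circles and squares are separate, Isg15 reaches -2.22 at 12 h, and the 2 values of Dyrk1a at 12 h lie far apart (-0.83 and -3.18).

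The largest functional block among the genes that fell was the interferon response. Isg15 encodes a ubiquitin-like protein that interferon induces and that is attached to other proteins. It read -0.95, -0.83 and -0.46 in untreated cells and -2.22, -2.06 and -2.15 at 12 h. All 12 h values lay more than 1 log2 unit below the lowest untreated value. The difference was -1.40 ± 0.25 (SE), 2.63-fold lower (limma adjusted p = 0.0165).

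Igtp, Irgm1 and Irgm2 encode immunity-related GTPases, which interferon-gamma induces and which act on vacuoles that hold intracellular pathogens. Igtp read -0.46, -0.49 and -0.39 untreated and -1.67, -2.03 and -1.92 at 12 h. Irgm2 read -0.40, -0.40 and -0.58 untreated and -1.80, -1.73 and -1.62 at 12 h. Irgm1 read -0.71, -0.69 and -0.23 untreated and -1.63 and -1.51 in 12 h replicates 1 and 3, with replicate 2 missing. For each of the 3 GTPases all 12 h values lay below all untreated values. Igtp fell by 1.43 ± 0.25 (SE; limma adjusted p = 0.0165), Irgm2 by 1.26 ± 0.23 (0.0208) and Irgm1 by 1.03 ± 0.19 (0.0230).

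Ifih1 and Dhx58 encode MDA5 and LGP2, cytosolic helicases that sense double-stranded viral RNA. Ifih1 read -0.67, -0.55 and -0.22 untreated and -1.52, -1.85 and -1.24 at 12 h, and Dhx58 read -0.52, -0.68 and 0.20 untreated and -1.50, -2.07 and -1.49 at 12 h. Untreated replicate 3 was the highest value of both genes. Ifih1 fell by 1.06 ± 0.21 (SE) and Dhx58 by 1.35 ± 0.27, each with a limma adjusted p of 0.0403. Ifi35, an interferon-induced leucine zipper protein, read -0.55, -0.60 and -0.19 untreated and -1.16, -1.69 and -1.10 at 12 h. Helz2, a helicase and nuclear receptor coactivator that interferon also induces, read -0.42, -0.32 and -0.36 untreated and -1.17, -1.22 and -0.99 at 12 h. Ifi35 fell by 0.87 ± 0.18 (SE) and Helz2 by 0.76 ± 0.15 (limma adjusted p = 0.0403 for both). Neither passes the rule by which genes were named, and both were added after their values were seen.

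Of the 42 genes listed for interferon response and antigen presentation 32 were measured. Called lower were 5 of them (Igtp, Isg15, Ifih1, Irgm1 and Ifi35) and called higher 0. In 19 of the 32 every 12 h value lay below every untreated value, and in 0 above, where all tested genes gave 8.96% and 10.6%. The median difference of the list was -0.71, against 0.021 over all tested genes. Without untreated replicate 3 it was -0.43, with 19 members separate downward and 2 upward (14.3% and 17.0% of all tested genes). The median was -0.78 on Cy5 arrays and -0.71 on Cy3 arrays. With the sign of all Cy3 arrays turned the median of this list was 0.062, that of the P450 list 0.069, of complement and coagulation 0.070, of acute phase proteins -0.027 and of ribosomal proteins 0.12, so the shares and medians of lists given here rest on reading both orientations as sample over reference.

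A pair of members with large differences that did not pass the test were singled out after their values were seen. Ifit1, which binds viral RNA that lacks cap methylation, read -1.26 and -1.17 in untreated replicates 1 and 2 and -3.10, -3.42 and -3.11 at 12 h, a difference of -2.00 ± 0.66 (limma adjusted p = 0.28). Rsad2, the antiviral enzyme viperin, read -1.06, -0.99 and -0.05 untreated and -1.64, -2.97 and -1.88 at 12 h, a difference of -1.46 ± 0.43 (adjusted p = 0.19). At the other end of the list lay B2m, the light chain of class I antigen-presenting molecules (0.18 ± 0.15, adjusted p = 0.88), and Irf1, an interferon-induced transcription factor (0.26 ± 0.41, adjusted p = 0.98). Both had overlapping groups.

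Calls depended on single replicates of both groups. Of all 17 called genes with a symbol, 1, 8 or 4 kept the call without untreated replicate 1, 2 or 3. Without 12 h replicate 1, 2 or 3 the call was kept by 7, 3 or 13. Without untreated replicate 3 the differences of the 8 called interferon genes described ran from -0.74 (Ifi35) to -1.40 (Igtp), and none kept its call: the limma adjusted p was 0.064 for Igtp and Irgm2, 0.13 for Isg15, 0.16 for Irgm1 and Helz2, 0.23 for Ifih1 and Ifi35, and 0.26 for Dhx58. With group weights all 8 were called, at 0.00123 (Igtp) to 0.00847 (Ifi35).

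The 250 bases before the start of 4 of these genes are shown because these genes fell together, and they were searched for the core of the interferon-stimulated response element. They come from RefSeq (GRCm38.p6), which held a promoter for 8002 of the 10074 tested genes (6969 matched by gene ID and 1033 by symbol), and the first listed start was used. Isg15 is at chr4:156200819-156201068 (minus strand), Igtp at chr11:58199306-58199555 (plus), Irgm1 at chr11:48871421-48871670 (minus) and Ifih1 at chr2:62646256-62646505 (minus). Each window lies directly upstream of the annotated gene start, 5′ to 3′ on the gene's strand. Capitals mark every match to the element's core (GAAA, any 2 bases, GAAA) on either strand, overlapping matches included.
Isg15: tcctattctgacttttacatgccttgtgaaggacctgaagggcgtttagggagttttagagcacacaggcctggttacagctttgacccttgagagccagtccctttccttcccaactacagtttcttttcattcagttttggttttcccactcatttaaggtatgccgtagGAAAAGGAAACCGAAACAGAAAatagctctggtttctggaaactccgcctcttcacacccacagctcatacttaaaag
Igtp: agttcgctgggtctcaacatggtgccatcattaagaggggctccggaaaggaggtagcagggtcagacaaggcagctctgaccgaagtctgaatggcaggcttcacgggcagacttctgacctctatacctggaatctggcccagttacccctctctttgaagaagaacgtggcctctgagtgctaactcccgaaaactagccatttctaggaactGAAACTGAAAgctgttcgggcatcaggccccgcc
Irgm1: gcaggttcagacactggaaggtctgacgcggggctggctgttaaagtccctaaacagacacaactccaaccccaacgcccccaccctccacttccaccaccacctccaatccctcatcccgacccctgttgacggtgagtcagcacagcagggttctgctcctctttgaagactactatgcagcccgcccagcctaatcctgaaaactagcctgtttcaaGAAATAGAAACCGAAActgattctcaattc
Ifih1: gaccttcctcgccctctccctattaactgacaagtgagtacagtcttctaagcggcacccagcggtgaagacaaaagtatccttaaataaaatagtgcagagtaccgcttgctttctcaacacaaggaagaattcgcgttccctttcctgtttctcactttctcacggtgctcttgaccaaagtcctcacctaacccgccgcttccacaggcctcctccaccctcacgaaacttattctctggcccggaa
Isg15 held 3 overlapping matches, the last ending 57 bases before the start, Irgm1 held 2 overlapping matches ending 15 bases before it, and Igtp held 1 ending 25 bases before it. Irgm2, which neighbours Igtp on chromosome 11, held 1 match ending 55 bases before its start. The letters were not found in the windows of Ifih1, Ifi35 and Helz2. Over all genes 4 of the 10 called lower that had a promoter held the motif, 10 of 24 in the interferon list (41.7%), 204 of 8002 tested genes (2.55%) and 3.04% of 27025 promoters. The shorter gamma-activated site, TTCNNNGAA, was found in 5 of 24 promoters of the interferon list (20.8%) and 6.36% of those tested. That share is not particular to interferon motifs, since the AP-1 site (TGANTCA) was also found in 5 of the 24 (20.8%, against 5.51% of those tested), the antioxidant element (TGACNNNGC) in 5 (20.8%, against 11.4%) and the TATA box (TATAAA) in 7 (29.2%, against 9.52%). The response element and the gamma-activated site were chosen after the called genes were seen.

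Enzymes and secreted products of the hepatocyte formed the other block of lower values. Cps1, the mitochondrial enzyme that makes carbamoyl phosphate from ammonia as the entry to the urea cycle, read 0.50, 0.44 and 0.24 untreated and -0.81, -1.16 and -0.99 at 12 h. Ass1, which joins citrulline to aspartate in the same cycle, read 0.69, 0.73 and 0.38 untreated and -0.0055, -0.22 and 0.0135 at 12 h. The groups did not overlap for either enzyme. Cps1 fell by 1.38 ± 0.23 (SE), 2.60-fold (limma adjusted p = 0.0120), and Ass1 by 0.67 ± 0.14, 1.59-fold (0.0429). Without untreated replicate 3 Cps1 was still called (adjusted p = 0.038) and Ass1 was not (0.0545). These were the 2 called of 9 measured members of the urea cycle list, whose median was -0.26 with 5 members separate downward and 0 upward.

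The remaining hepatocyte lists held no called member, and their values are given as levels. With group weights limma called lower 5 of 31 P450 genes, 3 of 30 of complement and coagulation and 4 of 29 acute phase proteins. It also called lower 3 of 28 secreted proteins, 4 of 31 amino acid breakdown genes and 80 of all 10074 tested genes. Fgg, Gnmt, Plg, Acsm1, Dgat2 and Apoc4 were among those 80. Cyp3a41a, Cyp4a10, F13b, Apoa1, Hpd, Slco1b2 and Fabp1 were not. In the cytochrome P450 system, which oxidises drugs and steroids, 20 of 31 measured genes were separate downward and 1 upward, with a median difference of -0.54 (8.96% and 10.6% of all tested genes were separate downward and upward). Cyp3a41a, a drug-metabolising P450, read -0.87, -0.81 and 1.05 untreated and -1.62, -1.79 and -1.88 at 12 h (-1.55 ± 0.43, limma adjusted p = 0.16). Cyp4a10, a PPARα-regulated fatty acid hydroxylase, read 0.30, 0.26 and 1.89 untreated and -0.25, -0.85 and -0.53 at 12 h (-1.36 ± 0.61, adjusted p = 0.53). Both genes were highest in untreated replicate 3, and without it the differences were -0.92 and -0.83. Without that replicate the P450 median was -0.46, with 22 members separate downward and 2 upward (14.3% and 17.0% of all tested genes).

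Of complement and coagulation genes 17 of 30 were separate downward and 0 upward, with a median of -0.44, and -0.31 without untreated replicate 3. F13b, the carrier subunit of factor XIII, read 0.02, 0.26 and 0.42 untreated and -0.43, -0.96 and -0.71 at 12 h (-0.93 ± 0.24, limma adjusted p = 0.13). Plg, the precursor of plasmin, read -0.53, -0.54 and -0.05 untreated and -0.84, -1.47 and -1.29 at 12 h (-0.83 ± 0.24, adjusted p = 0.20). The groups were separate for both. Acute phase proteins had 15 of 29 members separate downward and 0 upward (median -0.28, and -0.30 without untreated replicate 3). Among them Fgg, the fibrinogen gamma chain, read -0.68, -0.48 and -0.63 untreated and -1.80, -2.01 and -1.76 at 12 h (-1.26 ± 0.34, adjusted p = 0.15), with no overlap.

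Among albumin, apolipoproteins and other secreted proteins 15 of 28 were separate downward and 2 upward (median -0.27, and -0.19 without untreated replicate 3). Apoa1, the main protein of high-density lipoprotein, read -1.02, -1.18 and -0.05 untreated and -1.66, -2.01 and -1.60 at 12 h (-1.01 ± 0.30, limma adjusted p = 0.20). Without untreated replicate 3 the difference of Apoa1 was -0.66 (limma adjusted p = 0.77). Apoc4, a minor lipoprotein component, read 0.45, 0.25 and 0.58 untreated and -0.40, -0.63 and -0.41 at 12 h (-0.90 ± 0.28, adjusted p = 0.24). Albumin itself was level, at -0.03, -0.02 and -0.07 untreated and 0.03, -0.13 and -0.02 at 12 h, with overlapping groups and a difference of -0.0060 ± 0.091 (adjusted p = 1.00).

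Amino acid breakdown had 12 of 31 members separate downward and 3 upward (median -0.24). Gnmt, the methyltransferase that disposes of excess methionine, read 1.47 and 0.92 in untreated replicates 2 and 3 and -0.39, 0.02 and -0.0010 at 12 h (-1.32 ± 0.30, limma adjusted p = 0.0895). Hpd, of tyrosine breakdown, read 0.13, -0.32 and 0.15 untreated and -0.57, -1.08 and -0.85 at 12 h (-0.82 ± 0.20, adjusted p = 0.0895). Slco1b2, the bile acid and drug uptake carrier, read -0.01, 0.07 and 0.36 untreated and -1.41, -1.34 and -1.53 at 12 h (-1.56 ± 0.51, adjusted p = 0.27). A second probe of Slco1b2 lay the other way, with a difference of 0.24 ± 0.12 (adjusted p = 0.62). Fabp1, the liver fatty acid binding protein, read 0.09, 0.04 and 0.96 untreated and -1.83, -1.62 and -1.88 at 12 h (-2.14 ± 0.90, adjusted p = 0.48). Acsm1, a medium-chain acyl-CoA synthetase of mitochondria, differed by -1.15 ± 0.35 (adjusted p = 0.23) and Dgat2, which completes triglycerides, by -1.08 ± 0.32 (adjusted p = 0.20). The groups of all 6 genes in this paragraph were separate.

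Not every liver list lay low. Conjugating and hydrolysing drug enzymes had a median of 0.03, with 12 of 38 members separate downward and 5 upward. The shares over all tested genes were 8.96% downward and 10.6% upward. Sult2a8, a sulfotransferase of bile acids, differed by -1.08 ± 0.32 (limma adjusted p = 0.20). Antioxidant genes of the NRF2 response had 4 of 31 members separate upward and 1 downward (median 0.06). Gclc, the catalytic subunit of the first enzyme of glutathione synthesis, differed by 0.46 ± 0.19 (adjusted p = 0.47). Aldh1a1, which makes retinoic acid, was already high in untreated cells, at 1.69, 1.46 and 2.16, and read 2.63, 2.54 and 2.66 at 12 h (0.84 ± 0.24, adjusted p = 0.18). Fatty acid oxidation had 2 of 31 members separate upward and 5 downward, the respiratory chain 1 and 5 of 62, and hepatocyte transcription factors 2 and 2 of 18. Ldhb, a lactate dehydrogenase subunit and the largest difference among 32 genes of glycolysis and gluconeogenesis, read 0.09, 0.02 and 0.58 untreated and -0.43, -0.40 and -0.54 at 12 h (-0.68 ± 0.21, adjusted p = 0.20).

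**Figure D2:**
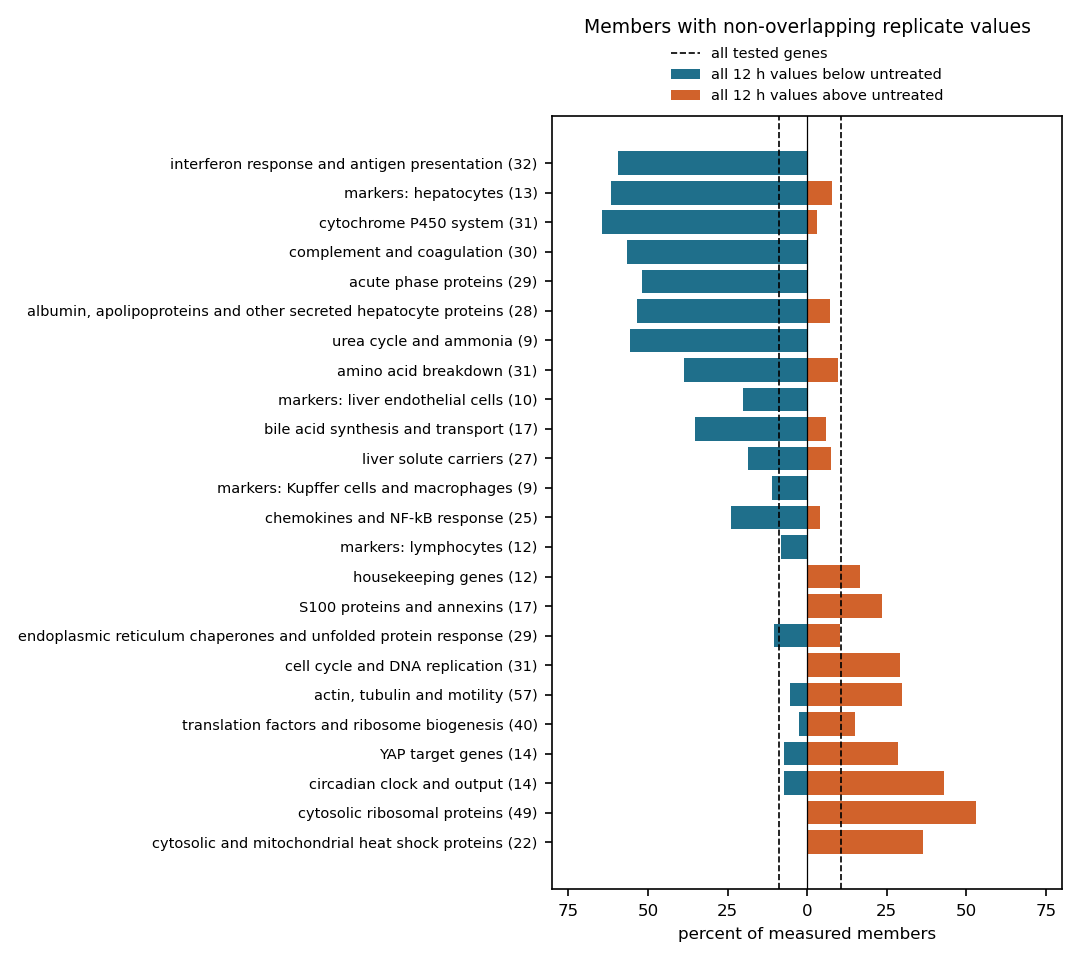
Percent of measured members (horizontal axis) whose 12 h replicate values all lay below (left, blue) or all above (right, orange) the untreated values, for the 24 gene lists at both ends of the order by median difference; the number measured is in brackets and dashed lines mark all tested genes (8.96% and 10.6%). The P450, hepatocyte marker and interferon lists reach furthest left, and ribosomal proteins, with 26 of 49 members separate upward, furthest right.

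The 3 called genes that rose belong to no shared list. S100a6, a calcium-binding protein of dividing and migrating cells, read -0.30, -0.43 and -0.42 untreated and 0.58, 0.82 and 0.84 at 12 h. Lgals3, the galactoside-binding lectin galectin-3, read 0.07, -0.06 and 0.25 untreated and 0.94, 1.12 and 0.85 at 12 h. Both genes had separate groups. S100a6 rose by 1.13 ± 0.23 (SE), 2.19-fold (limma adjusted p = 0.0403), and Lgals3 by 0.88 ± 0.16, 1.84-fold (0.0179). Trpc7, a cation channel of the TRP family, read -0.11, -0.30 and -0.21 untreated and 0.48 and 0.96 in 12 h replicates 1 and 2, with replicate 3 missing, and rose by 0.92 ± 0.18 (0.0429). Its probe had values on 53 of 60 arrays. Without untreated replicate 3 Lgals3 was called (limma adjusted p = 0.038), while S100a6 and Trpc7 were not (0.16 for both). Without untreated replicate 1, or without 12 h replicate 2, 0 probes were called higher, so Lgals3 lost its call too.

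Of 17 measured S100 proteins and annexins S100a6 was the only one called, with 4 separate upward and 0 downward (median 0.10). Actin, tubulin and motility genes had 17 of 57 members separate upward and 3 downward (median 0.12). Tpm1, a tropomyosin of actin filaments, read 1.09, 0.89 and 0.62 untreated and 1.58, 1.68 and 1.87 at 12 h (0.84 ± 0.29, limma adjusted p = 0.31). Actn4, an actin cross-linker, read 0.40, 0.38 and 0.11 untreated and 0.78, 0.93 and 0.89 at 12 h (0.57 ± 0.15, adjusted p = 0.12), and its other probe differed by 0.37 ± 0.13 (adjusted p = 0.35). Both were separate, and neither was called. With group weights Actn4 was called higher (limma adjusted p = 0.033) and Tpm1 was not (0.068). That setting called 1 of the 57 members higher, and 9 of all 10074 tested genes. YAP target genes had 4 of 14 separate upward and 1 downward (median 0.13), with Crim1, a membrane regulator of BMP signalling, at 0.64 ± 0.19 (adjusted p = 0.20) and Tead4, a DNA-binding partner of YAP, at 0.47 ± 0.21 (adjusted p = 0.53). All tested genes gave 10.6% upward and 8.96% downward. Without untreated replicate 3 the medians of the S100, actin and YAP lists were 0.067, 0.060 and 0.028. In that order they were 0.20, 0.14 and 0.26 on Cy5 arrays and 0.011, 0.060 and -0.017 on Cy3 arrays.

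Cytosolic ribosomal proteins held no called member, and 48 of 49 differences were above 0. In 26 of 49 every 12 h value was above every untreated value and in 0 below, against 10.6% and 8.96% of all tested genes. The median was 0.21, and the largest difference was 0.36. Rplp2, an acidic protein of the ribosomal stalk, read 0.02, -0.08 and 0.08 untreated and 0.38, 0.26 and 0.43 at 12 h (0.35 ± 0.18, limma adjusted p = 0.63). The median was 0.34 on Cy5 arrays and 0.10 on Cy3 arrays. Heat shock proteins had 8 of 22 separate upward and 0 downward (median 0.26, and 0.13 without untreated replicate 3). Hspb1, the small chaperone HSP27, read 1.86, 1.67 and 1.74 untreated and 2.40, 2.28 and 2.68 at 12 h (0.70 ± 0.25, adjusted p = 0.33). Chordc1, a co-chaperone of HSP90, read 0.18, 0.23 and -0.46 untreated and 0.51, 1.02 and 0.57 at 12 h (0.72 ± 0.26, adjusted p = 0.36).

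Lists of genes close to growth factor signalling held no called member, where 0.130% of all tested probes were called. Lists this short would mostly hold none at that share. Of all tested genes 10.6% were separate upward and 8.96% downward. The HGF and MET axis list had 6 of 17 members separate upward and 2 downward (median 0.05). Hpn, the membrane protease hepsin that can activate HGF, differed by 0.50 ± 0.19 (limma adjusted p = 0.38), and Pik3r1, a regulatory subunit of PI3-kinase, by -0.48 ± 0.23 (adjusted p = 0.57). Immediate early genes had 1 of 23 separate upward and 4 downward. Among them Egr1 differed by -0.03 ± 0.27 and Fos by -0.18 ± 0.17, both with overlapping groups and adjusted p of 1.00 and 0.90. Klf10, an early target of TGF-beta, read 0.12, 0.20 and -0.23 untreated and -0.48, -0.84 and -0.62 at 12 h (-0.68 ± 0.21, adjusted p = 0.22). Cell cycle and DNA replication genes had 9 of 31 separate upward and 0 downward (median 0.12). The probes of Myc and Ccnd1 were not tested, for want of values.

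Untreated cultures and those of 12 h were taken at clock times that the labels do not give. Of 14 clock genes 6 were separate upward and 1 downward (median 0.19), against 10.6% and 8.96% of all tested genes. Arntl, the clock activator BMAL1, read 0.12, 0.12 and 0.36 untreated and -0.53, -0.78 and -0.31 at 12 h, a difference of -0.74 ± 0.19 (limma adjusted p = 0.11). Tef, an output factor of the clock, read 0.05, -0.0065 and -0.19 untreated and 0.49, 0.55 and 0.32 at 12 h (0.50 ± 0.23, adjusted p = 0.54). With group weights Arntl was called lower (limma adjusted p = 0.036), and Tef was not called (0.32). Chemokines and NF-kB targets had 6 of 25 separate downward and 1 upward (median -0.11). Cxcl10, an interferon-induced chemokine that also stands in the interferon list, differed by -0.80 ± 0.32 (adjusted p = 0.43), and Ccl4, a chemokine of macrophages and lymphocytes, by -1.01 ± 0.42 (adjusted p = 0.48). Hamp, the iron hormone hepcidin, read 1.63, 1.86 and -0.03 untreated and 0.28, 0.48 and 0.31 at 12 h. Its untreated replicate 3 lay below all 12 h values and the other untreated values above them (-0.80 ± 0.40, adjusted p = 0.63, and -1.39 without that replicate).

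Of the remaining called genes 3 had unlike differences on the 2 dyes. The probe of 1700001D01Rik, a gene of unknown function, read 2.98 and 2.09 in untreated replicates 1 and 2, had no value in replicate 3, and read 0.21, -0.04 and -0.12 at 12 h. The difference was -2.52 ± 0.24 (limma adjusted p = 1.59e-05), but it was -3.59 on Cy5 and 0.21 on Cy3 arrays. Of 2 tested probes of Dyrk1a, a kinase, 1 read 0.08, 0.27 and 0.05 untreated and -0.83 and -3.18 in 12 h replicates 2 and 3, with replicate 1 missing. It was called at -2.14 ± 0.35 (adjusted p = 0.0120), with -0.12 on Cy5 and -2.37 on Cy3 arrays, while the other probe differed by -0.06 ± 0.18 (adjusted p = 1.00). By contrast Camk2b, a subunit of a calcium-dependent kinase, had like differences on both dyes. It read -0.36, -0.29 and -0.08 untreated and -1.31, -1.71 and -1.32 at 12 h, and fell by 1.20 ± 0.22 (0.0208), with -1.11 on Cy5 and -1.29 on Cy3 arrays. The third with unlike dyes was C030037F17Rik, of unknown function and outside the naming rule. It read 0.29, -0.15 and 0.32 untreated and -0.73, -0.81 and -0.49 at 12 h, and fell by 0.83 ± 0.17 (0.0429), with -0.23 on Cy5 and -1.43 on Cy3 arrays.

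Markers of the cells such cultures can hold were read the same way. Of 13 measured hepatocyte markers 2 were called lower (Cps1 and Ass1), 8 were separate downward and 1 upward, and the median was -0.67. Of 9 measured markers of Kupffer cells and macrophages 0 were called and 1 was separate downward (median -0.12). Over all tested genes 8.96% were separate downward and 10.6% upward, and 0.130% of tested probes were called. In marker lists this short, 0 calls and 1 separate member are near those shares. Mpeg1, a macrophage pore-forming protein, differed by -0.61 ± 0.23 (limma adjusted p = 0.37). Endothelial markers had 2 of 10 separate downward (median -0.20), lymphocyte markers 1 of 12 (-0.10), stellate cell and fibroblast markers 1 of 11 (-0.08), bile duct markers 3 of 9 downward and 3 upward (0.05), and red blood cell markers 0 of 4 (0.01). Col1a2, a collagen of fibroblasts, read 3.73 in 12 h replicate 2 and at most 0.06 in the other 2, and Col3a1 differed by -0.46 ± 0.14 (adjusted p = 0.24). Differences lay below 0 in 8 of 9 Kupffer cell and macrophage markers, 8 of 10 endothelial and 11 of 12 lymphocyte markers. For stellate cell and fibroblast, bile duct and red blood cell markers these counts were 6 of 11, 4 of 9 and 2 of 4. Over all tested genes 4533 of 10074 differences lay below 0. The part of these cells in the results above was not tested. A ratio to hepatocyte RNA does not show whether a marker is present at all, and in bulk RNA fewer cells of a type and less RNA per cell cannot be told apart.

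Levels of the called genes at the other times place the 12 h values. In knock-out cells Isg15 had a mean of -0.75 before HGF, then -1.10, -0.13, -2.14 and -2.56 after 0.5, 2, 12 and 24 h. In the same order Igtp had -0.45, -0.75, -0.13, -1.88 and -1.84. Cps1 had 0.39, 0.70, -0.0020, -0.99 and -0.59, and S100a6 -0.38, -0.52, -0.47, 0.75 and 1.11. Isg15, Igtp and Cps1 thus stood nearest to the reference at 2 h, and S100a6 stayed below it through 2 h. Knock-out replicates of 2 h had a narrow spread, with SDs of averaged values over tested probes of 0.208 to 0.26. Those SDs were 0.234 to 0.329 untreated and 0.356 to 0.477 at 12 h. Values near the reference at 2 h were thus not particular to interferon genes. The arrays of 0.5 h, and of 2 h except knock-out replicate 3, form another number range (set D), so time and array set cannot be told apart there.

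**Figure D3:**
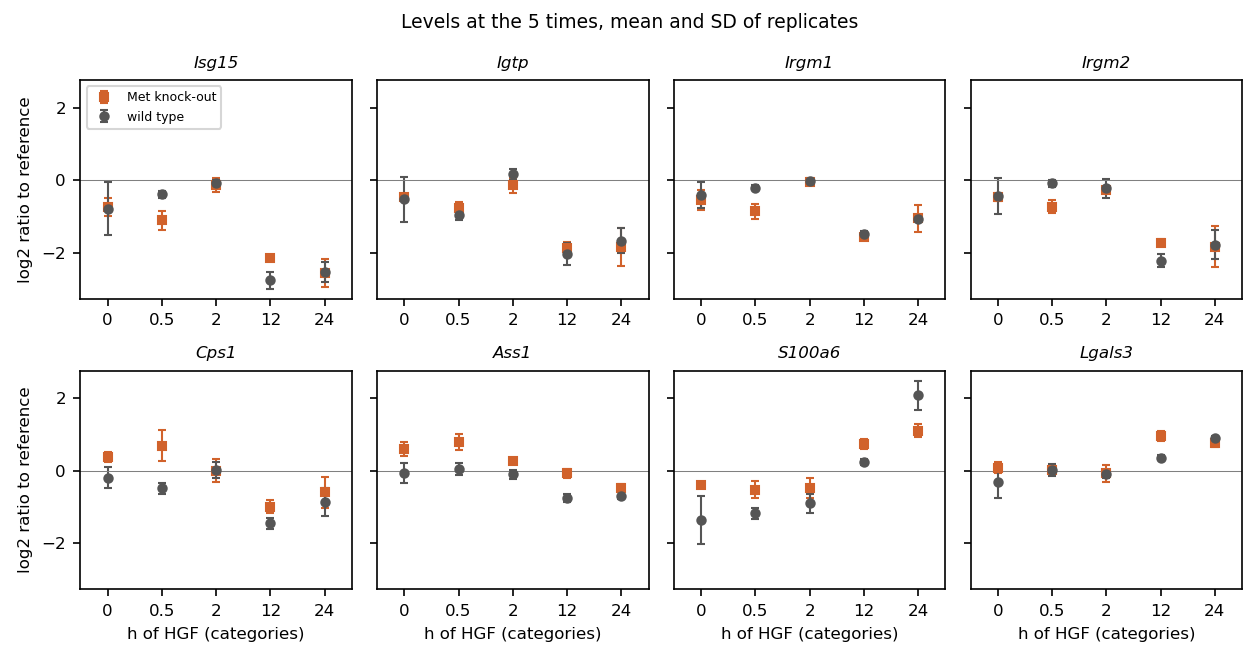
Mean log2 ratio to the reference with SD of the replicates (vertical axis) at 0, 0.5, 2, 12 and 24 h of HGF (categories, not to scale) in knock-out (squares) and control cells (circles) for 8 called genes. Isg15, Igtp, Irgm1 and Irgm2 are lower at 12 and 24 h than at the 3 earlier times in both genotypes, and S100a6 is higher.

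Between 12 and 24 h of HGF 77 probes were called in knock-out cells (0.528%), 15 higher and 62 lower. Of these 25 were among the 215 tested probes of Gapdh, all lower. With 1 Gapdh probe kept 16 probes were called, with group weights 0 (limma; 1370 at an unadjusted p under 0.05), and leaving out 12 h replicate 1, 2 or 3 left 26, 13 or 13. Leaving out 24 h replicate 1, 2 or 3 left 391, 50 or 285. At 24 h replicate 2 stood apart, with an SD over probes of 1.39 on its Cy3 array and r of 0.236 and 0.427 with its group, and replicate 3 belongs to a further array number range (set B). The Dyrk1a probe called at 12 h was called again, with a difference of 2.07 ± 0.35 (limma adjusted p = 0.0120) and a mean of 0.06 ± 0.22 (SD, n = 3) at 24 h. That difference rests on its 12 h values of -0.83 and -3.18, was -0.047 on Cy5 arrays, and was -0.02 ± 0.18 for the other Dyrk1a probe. C030037F17Rik differed by 0.63 ± 0.17 (adjusted p = 0.086). Isg15 differed by -0.42 (adjusted p = 0.53) between these times, Igtp by 0.04 (0.98), Cps1 by 0.39 (0.51), S100a6 by 0.36 (0.58) and Lgals3 by -0.21 (0.69). Tuba1a, a tubulin, rose by 1.39 ± 0.27 (adjusted p = 0.0296) after 12 h, while Tubb6, another tubulin, fell by 1.72 ± 0.38 (0.0433), to a mean of -1.83 with an SD of 1.495 (n = 3), and by 0.86 without 24 h replicate 2 (0.0256).

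Control hepatocytes show which of these differences were also measured where Met is present. There 847 probes were called at 12 h (5.81%), 387 higher (2.65%) and 460 lower (3.16%). The interferon list had a median of -0.76 there, with 14 of 32 members called lower (limma). Isg15 differed by -1.98 ± 0.25 there, Igtp by -1.50 ± 0.25, Irgm2 by -1.79 ± 0.23, Cps1 by -1.26 ± 0.23 and S100a6 by 1.61 ± 0.23. The differences of these changes, knock-out minus control, were 0.58 ± 0.35 for Isg15 (limma adjusted p = 0.90), 0.08 ± 0.35 for Igtp (1.00), 0.54 ± 0.33 for Irgm2 (0.92), -0.12 ± 0.32 for Cps1 (1.00) and -0.48 ± 0.32 for S100a6 (0.93). None of these 5 passed the test, which does not show that the genotypes act alike. List medians in control cells were -0.76 for P450, -0.71 for complement and coagulation, 0.45 for ribosomal proteins and 0.37 for actin, tubulin and motility.

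Control untreated replicate 3 (array set B) stood apart. Its Cy5 array correlated with the other control untreated Cy5 arrays at r of -0.438 and -0.427, and its average with theirs at -0.209 and -0.0563, so its direction is in doubt, and it enters every control difference given here. The test of the genotype difference itself called 11 probes (0.0754%), 2 with a higher (0.0137%) and 9 with a lower change (0.0617%) in knock-out cells; strain and genotype changed together. Adh1, the main liver alcohol dehydrogenase, read 0.15, 0.19 and 0.16 untreated and 0.99, -0.05 and 0.51 at 12 h in knock-out cells, and -0.64, 0.40 and 0.78 untreated and -1.59, -1.42 and -1.28 at 12 h in control cells. Its change was 0.32 ± 0.26 in knock-out and -1.61 ± 0.26 in control cells, a difference of 1.92 ± 0.37 (limma adjusted p = 0.0363). Gsta3, a glutathione transferase, changed by -0.06 ± 0.12 in knock-out and -0.97 ± 0.12 in control cells, a difference of 0.91 ± 0.16 (0.0241). Both enzymes fell in control cells, with no change called in knock-out cells.

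Apbb2, an adaptor protein, read 0.15, -0.05 and -0.06 untreated and -0.13, -0.06 and 0.19 at 12 h in knock-out cells, and -0.28, -0.53 and -0.59 untreated and 1.16, 1.08 and 1.24 at 12 h in control cells. A second probe of Apbb2 gave a difference of the changes of -0.75 ± 0.16 (limma adjusted p = 0.072). Clic1, a chloride channel protein, changed by 0.07 ± 0.19 in knock-out and 1.46 ± 0.19 in control cells. The differences of the changes were -1.64 ± 0.22 for Apbb2 (limma adjusted p = 0.00142) and -1.39 ± 0.27 for Clic1 (0.0363). Both rose in control cells, with overlapping groups in knock-out cells. Without control untreated replicate 3 the genotype difference was 1.63 for Adh1 (limma adjusted p = 0.11), 0.81 for Gsta3 (0.070), -1.58 for Apbb2 (0.0055) and -1.17 for Clic1 (0.11). With the sign of its Cy5 array turned it was 1.79 (0.051), 0.83 (0.039), -1.22 (0.23) and -1.001 (0.23) in the same order. Dyrk1a (-2.55 ± 0.47, adjusted p = 0.0249) and 1700001D01Rik (-2.53 ± 0.32, 0.00142) were called for their change in knock-out cells, which rests on the arrays described above. Leaving out 1 knock-out or control replicate of the 4 groups left 4 to 15 calls, with 4 without knock-out untreated replicate 1, control untreated replicate 3 or control 12 h replicate 2.

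**Figure D4:**
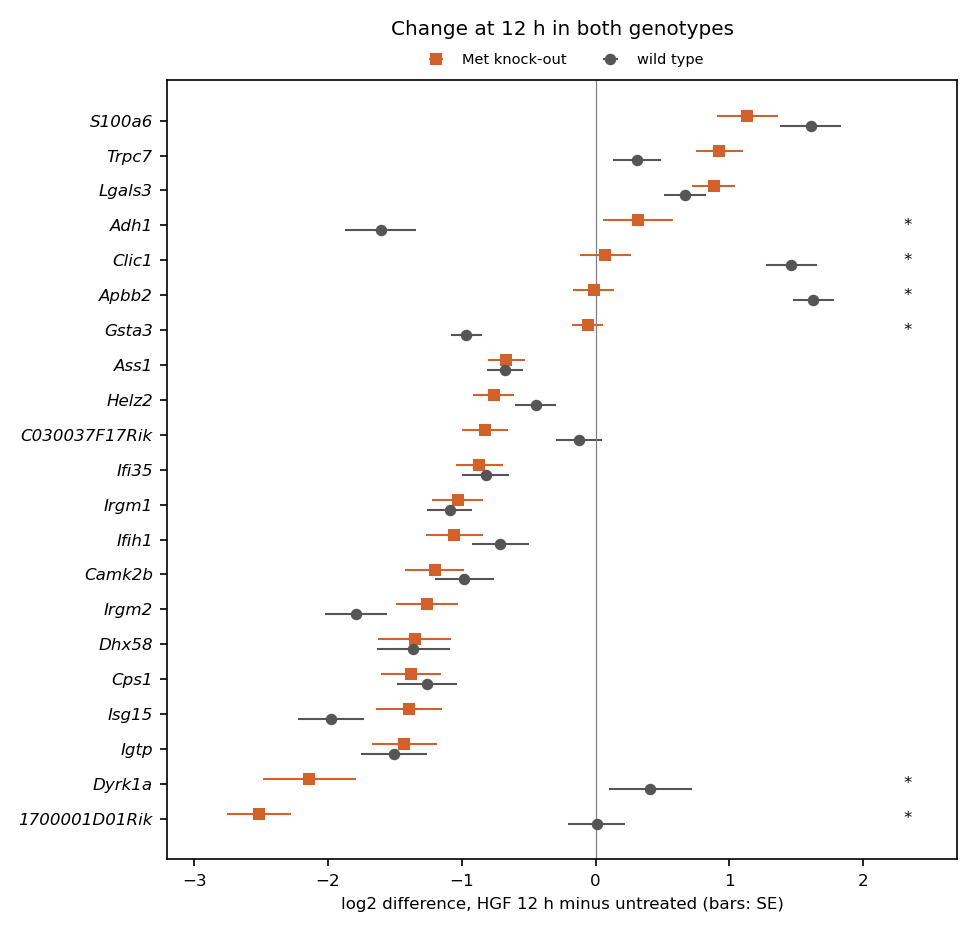
Log2 difference of 12 h of HGF minus untreated with its SE (horizontal axis) in knock-out (squares) and control cells (circles) for the called genes and the named genes of the genotype test; asterisks mark an adjusted p under 0.05 for the difference between genotypes. No asterisk stands at the interferon genes or Cps1, while Adh1, Gsta3, Apbb2 and Clic1 lie closer to 0 in knock-out than in control cells.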

How the data were processed

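Labelled RNA of each culture and of the reference was hybridised together on 2-colour arrays, with dyes exchanged between the 2 arrays of a replicate. The authors deposited the ratio of each spot, read here as log2 from its range, after a normalization that the sources used here do not describe. Their log base and direction are likewise not stated there. The array's median was subtracted from its values, and both arrays of a replicate were averaged. Probes with both orientations in at least 2 of 3 replicates of all 10 groups were fitted with limma 3.58.1 (lmFit and eBayes, R 4.3.3) over all 30 replicates, and p-values were adjusted by Benjamini and Hochberg over all tested probes, with calls under 0.05. The procedure was tested on simulated data. It recovered 22 of 67 changes of 0.5, 60 of 67 of 1 and 63 of 66 of 2, with 6 false calls. The simulated noise was independent between replicates, without array sets, dye effects or unequal spread of groups. How the procedure fares under these was not tested. Lists are given by counts and medians. A gene with several probes is read from the one with values on most arrays.

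The comparison, the lists and the naming rule were chosen with earlier results of these data known. The rule takes the 10 highest and 10 lowest called probes with separate groups, up to 4 called members of each list or otherwise the 2 with the largest difference, the 4 highest and 4 lowest called probes of the other comparisons, and a fixed panel. The printed genes were picked from these with their values in view. The number of arrays limits the precision. Each SE and p-value rests on 1 spread per probe estimated over all 10 groups, not on the compared groups alone. Fabp1 had an SE of 0.90 with SDs of 0.52 untreated, 0.14 at 12 h and 3.22 at 24 h in knock-out cells. The called Dyrk1a probe had an SE of 0.35 with an SD of 1.66 at 12 h.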

Additional observations from a re-analysis of the deposited data

Results flagged for a closer look

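The change over 12 h differed between knock-out and control hepatocytes for 11 probes by the test of that difference itself (limma, adjusted p under 0.05; knock-out minus control). The difference was 1.92 for Adh1 and 0.91 for Gsta3, both of which fell in control cells. It was -1.64 for Apbb2 and -1.39 for Clic1, both of which rose in control cells. Of these 4 only Apbb2 was called without control untreated replicate 3, and only Gsta3 with the sign of its Cy5 array turned. It was -2.55 for Dyrk1a and -2.53 for 1700001D01Rik, each with the change on 1 dye in knock-out cells. Groups of 3 replicates are too small for the test of outlying samples.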

How the results depend on the processing

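The count of 19 probes called at 12 h in knock-out cells became 206 with scale normalization, 131 with single arrays fitted and replicates as a random block, 3 on Cy3 arrays only, 9 with the sign of the Cy5 array of control untreated replicate 3 turned, 65 with dye profiles removed, 45 without a probe filter, 67 without control untreated replicate 3 and knock-out 24 h replicate 2, 116 with group weights, 94 with array set as a term, 89 without array sets A and B, and 6 with a trended, robust prior. Fitted alone, the groups compared gave 15 calls, 7 of them among the 19. Cy5 arrays only gave 13, with 6 of them among the 19. Of the 17 called genes with a symbol, 7 and 6 kept the call in these settings. Leaving out 1 replicate gave 1 to 24. The genotype difference, 11 probes, became 38 with scale normalization, 48 with single arrays, 21 on Cy5 and 1 on Cy3 arrays, 6 with that Cy5 array turned, 37 with dye profiles removed, 1 in the 4 groups alone, 5 without those 2 replicates, 49 with array set as a term and 20 without sets A and B; leaving out 1 replicate gave 4 to 15. The 77 calls between 12 and 24 h became 132, 6 on Cy5, 1 on Cy3, 41 with dye profiles removed, 28 with a loose and 38 with no filter, 0 in both groups alone (limma; 961 at an unadjusted p under 0.05), 0 with group weights (1370), 416 with array set as a term and 433 without sets A and B; leaving out 1 replicate gave 13 to 391. Chosen after seeing the data were a fit of knock-out groups only (6 calls at 12 h and 9 between 12 and 24 h), group weights without the set A value (72) and 1 Gapdh probe kept (16 between 12 and 24 h). The cause of these shifts was not tested.

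With the replicate block 35 probes were called at 12 h, 17 of them among the 19, 12 for the genotype difference and 32 between 12 and 24 h. Same-numbered replicates of both groups deviated with r of 0.00149, 0.00646 and -0.0716, and the numbers were not taken to pair the cultures. These values cannot exclude a pairing. Untreated replicate 3 stood apart, and each untreated deviation is taken from a mean that holds it.

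Turning the sign of all Cy3 arrays, which would hold if their ratios ran the other way, left 1, 1 and 0 calls (for the last, 991 at an unadjusted p under 0.05, limma). It turned 23 of 48 list medians, among them 8 of those over 0.2 in size. Of the medians over 0.2 in size only those of heat shock, acute phase and ribosomal proteins kept their sign. Differences at 12 h then became 2.02 for Dyrk1a, 0.13 for Igtp, 0.033 for Isg15, 0.013 for Cps1, 0.090 for Dhx58 and Camk2b, 0.087 for Ifih1, 0.14 for Irgm1, 0.22 for Ass1, 0.60 for C030037F17Rik, 0.036 for Ifi35 and 0.16 for Rsad2. They became 0.13 for Gnmt, 0.011 for Hpd, 0.41 for Cyp4a10, 0.058 for Slco1b2, 0.25 for Fabp1, 0.13 for Acsm1, 0.013 for Fgg, 0.10 for F13b, 0.094 for Plg, 0.16 for Apoa1 and 0.20 for Apoc4. They became -0.098 for Crim1, 0.020 for Klf10, 0.27 for Pik3r1, 0.34 for Hamp, 0.077 for Ccl4, 0.23 for Arntl, 0.14 for Mpeg1, -1.13 for Col1a2, 0.052 for Col3a1, -0.0078 for Met, 0.011 for Egr1, 0.14 for Fos and -0.25 for B2m. The genotype difference became -0.43 for Adh1, -0.36 for Gsta3 and 2.14 for Dyrk1a, and the change from 12 to 24 h -2.11 for Dyrk1a and 0.88 for Tubb6. Other signs turned for Alb (0.013 with scale normalization, 0.037 on Cy3 arrays, -0.040 to 0.040 when 1 replicate was left out, 0.0045 among them), Egr1 (0.031 with scale normalization, 0.037 with dye profiles removed, -0.16 to 0.096 when 1 replicate was left out, 0.087 among them), Col1a2 (-0.070 on Cy5 arrays, -0.191 to 1.715 when 1 replicate was left out), B2m (-0.072 on Cy5 arrays), 1700001D01Rik on Cy3 arrays (0.21, and 0.51 for the genotype difference) and Dyrk1a from 12 to 24 h on Cy5 arrays (-0.047).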
